A study of Rattus norvegicus with 2 samples.

Results

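Cholesterol synthesis was followed through 8 genes in H9c2 cells, a line derived from embryonic rat heart, after transfection with a plasmid for the calcium channel subunit beta4. The 8 genes are Hmgcs1, Idi1, Fdps, Fdft1, Sqle and Lss, which encode enzymes, and Insig1 and Srebf2, which encode regulators. They were taken by symbol from the deposited transcript table, in which 10 of 32767 transcripts belong to them, and the values of a symbol's transcripts were summed. All 8 are among the 16783 symbols of the table and among the 9539 genes called measured, meaning that either library reached 1 FPKM. FPKM is a level per length of transcript and per number of mapped reads. The table's header does not name its unit, and the values were read as FPKM from their form. The cells of one library carried the beta4 plasmid and those of the other an empty vector, and both are labelled as strain BD1X and heart myocardium. Each group held 1 library from this single cell line, so no difference below has a replicate check, and no test between conditions could be made. The labels do not say how many cells took up the plasmid. None of the 8 genes encodes a receptor for cholesterol uptake.

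Cells build cholesterol from acetyl units through mevalonate, isoprenoid units and squalene, which is then closed into a ring and trimmed to cholesterol. SREBP-2, the product of Srebf2, is a membrane-bound transcription factor that is released when sterols are scarce and switches on the genes of this pathway together with its own gene. Insig1 holds the SREBP precursor and its escort Scap in the endoplasmic reticulum when sterols are plentiful, and is itself a target of SREBP. In muscle cells, cholesterol is a component of the surface membrane and its invaginations. Oxysterols made by the enzyme of Ch25h, an interferon-induced gene in mouse immune cells, restrain SREBP processing.

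The Cacnb4 library held 16925364 raw and 14939784 mappable reads, and the empty vector library held 15258174 raw and 13569897 mappable reads. Cacnb4 itself was at 6266 FPKM in the Cacnb4 library, against 4.37 FPKM in the empty vector library. Of 9 muscle and mesenchymal markers in the table, all were measured. Log2 ratios were below 0 for 5, beside 55.4% of measured genes, and above for 4. At a log2 ratio of 0.3219, a size explained with the results, 3 were higher in the Cacnb4 library and 0 lower. Of all measured genes, 9.78% were higher and 10.1% lower at that size. The myosin gene of embryonic muscle, Myh3, stood at 4.57 FPKM in the Cacnb4 library and 1.86 FPKM in the empty vector library, with a q-value of 0.0310 in the authors' deposited table, the 1 transcript of this list marked there. Tnnt2, cardiac troponin T, was at 309 FPKM in the Cacnb4 library and 214 FPKM in the empty vector library. Myog, the muscle differentiation factor myogenin, was at 71.9 FPKM in the Cacnb4 library and 51.3 FPKM in the empty vector library. The cardiac actin gene Actc1 was at 192 FPKM in the Cacnb4 library and 225 FPKM in the empty vector library. Summed, the 9 markers were at 4425 FPKM in the Cacnb4 library and 4566 FPKM in the empty vector library, and their part in the results below was not tested. Vim, an intermediate filament of mesenchymal cells, was at 2609 FPKM in the Cacnb4 library and 2821 FPKM in the empty vector library, and desmin, Des, the muscle filament, was at 6.02 FPKM in the Cacnb4 library and 7.55 FPKM in the empty vector library. Markers of other cells were under 1 FPKM in both libraries for all 5 hepatocyte, 6 leukocyte, 4 endothelial and 6 neuronal and glial genes in the table. The summed level of the hepatocyte markers, cells with high sterol synthesis, was 0.286 FPKM in the Cacnb4 library and 0.108 FPKM in the empty vector library. Of all these markers, Ttr alone was listed at 0, in the empty vector library. Leukocyte markers summed to 1.98 FPKM in the Cacnb4 library and 1.20 FPKM in the empty vector library. Endothelial markers summed to 0.482 FPKM in the Cacnb4 library and 0.273 FPKM in the empty vector library, and neuronal and glial markers to 0.648 FPKM in the Cacnb4 library and 0.803 FPKM in the empty vector library.

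Promoter windows are shown because SREBP acts on such genes together with the CCAAT-binding factor NF-Y and with Sp1, which binds GC boxes. RefSeq windows on assembly GRCr8, from 250 bases before to 50 after the start of transcription, were found for 6 of the 8 genes, namely Hmgcs1, Idi1, Fdps, Lss, Insig1 and Srebf2. All 6 windows held the CCAAT box, searched as CCAAT on either strand (ATTGG on the other), against 37.5% of all 33469 promoter windows. On the gene's own strand alone, 1 of the 6 held it, against 20.9% of all windows. The 4 windows printed here are those of the first enzyme, of the most abundant enzyme and of both regulators. They run 5′ to 3′ on the strand of the gene, with CCAAT or ATTGG in capitals. Hmgcs1 is at chr2:53382054-53382353 on the plus strand, Fdps at chr2:176804767-176805066 on the minus strand, Insig1 at chr4:8057720-8058019 on the minus strand and Srebf2 at chr7:115543057-115543356 on the plus strand.
Hmgcs1: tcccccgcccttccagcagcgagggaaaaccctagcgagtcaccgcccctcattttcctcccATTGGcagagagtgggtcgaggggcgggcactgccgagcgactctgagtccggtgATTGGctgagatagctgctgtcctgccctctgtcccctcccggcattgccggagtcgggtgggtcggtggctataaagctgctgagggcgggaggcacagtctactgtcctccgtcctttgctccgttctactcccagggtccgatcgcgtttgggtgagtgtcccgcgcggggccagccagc
Fdps: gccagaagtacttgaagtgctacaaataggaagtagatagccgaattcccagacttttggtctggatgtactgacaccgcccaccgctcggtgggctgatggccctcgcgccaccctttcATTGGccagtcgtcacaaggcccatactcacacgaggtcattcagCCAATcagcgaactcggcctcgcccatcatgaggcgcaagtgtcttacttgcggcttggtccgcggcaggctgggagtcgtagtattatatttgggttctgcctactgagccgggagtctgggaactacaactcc
Insig1: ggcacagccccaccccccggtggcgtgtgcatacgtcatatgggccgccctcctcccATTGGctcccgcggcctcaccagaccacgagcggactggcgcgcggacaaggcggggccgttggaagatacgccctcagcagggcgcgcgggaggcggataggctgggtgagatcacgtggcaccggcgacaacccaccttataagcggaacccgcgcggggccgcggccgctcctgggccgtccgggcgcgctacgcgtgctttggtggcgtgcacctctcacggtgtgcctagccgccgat
Srebf2: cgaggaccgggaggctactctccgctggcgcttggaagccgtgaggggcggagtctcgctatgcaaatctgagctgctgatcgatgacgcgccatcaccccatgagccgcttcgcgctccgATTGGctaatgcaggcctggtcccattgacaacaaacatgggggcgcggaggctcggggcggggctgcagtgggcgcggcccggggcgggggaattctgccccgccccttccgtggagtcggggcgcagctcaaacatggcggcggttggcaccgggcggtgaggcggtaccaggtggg

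The Hmgcs1 window held its CCAAT boxes from base -188 to -184 and from -133 to -129, counted from the start of transcription and both on the opposite strand. In Fdps they lay at -130 to -126 on the opposite strand and at -85 to -81 on the gene's strand. Insig1 had 1, at -193 to -189, and Srebf2 had 1, at -129 to -125, both on the opposite strand. Among the windows not printed, Idi1 held 2 and Lss held 1. The GC box, GGGCGG on either strand, stood in 5 of the 6 windows, with Idi1 the exception, against 33.1% of all windows. On the gene's strand alone 3 of the 6 held it, against 21.9% of all windows. Srebf2 had the most GC boxes of the 6, with 5. The E-box CANNTG stood in 5 of the 6, with Hmgcs1 the exception, against 72.1% of all windows. A sterol regulatory element spelled TCACNCCAC, searched on both strands, was in 0 of the 6 windows and in 1.12% of all windows. Its first 8 letters, TCACNCCA, a search added after the windows were seen, stood in Srebf2 as TCACCCCA from -156 to -149 and in 3.89% of all windows. Other spellings of the element were not searched, so these counts do not show that a window lacks one. GC content of the 6 windows ran from 53.7% in Idi1 to 71.3% in Insig1, and windows of like composition were not singled out for the shares given. These matches describe letters in the windows, and binding was not measured.

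All 8 genes were lower in the Cacnb4 library than in the empty vector library, by small amounts in 7 of them. Log2 ratios are log2 of FPKM + 1 in the Cacnb4 library over FPKM + 1 in the empty vector library, a scale that understates differences of low genes. On that scale 8 of 8 lay below 0, beside 55.4% of the 9539 measured genes, and they stayed below 0 when the libraries were rescaled to a median ratio of 1, with Srebf2 at -0.01. None was 2-fold lower or 2-fold higher, beside 1.08% and 1.94% of measured genes. A smaller size was also counted, a log2 ratio of at least 0.3219 in either direction, called the smaller size below. At that size 1 of 8 was lower, beside 10.1% of measured genes, and 0 of 8 were higher, beside 9.78%. The 1 gene was Sqle, and without it the count is 0 of 7. The median log2 ratio of the 8 genes was -0.10, beside -0.03 over all measured genes. Summed over the 8 genes the level was 251 FPKM in the Cacnb4 library and 281 FPKM in the empty vector library, a ratio of 0.891. Sqle made up 42.9% of that gap and Fdps 36.7%. In such cultures, fewer expressing cells and less RNA per cell cannot be told apart.

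**Figure D1:**
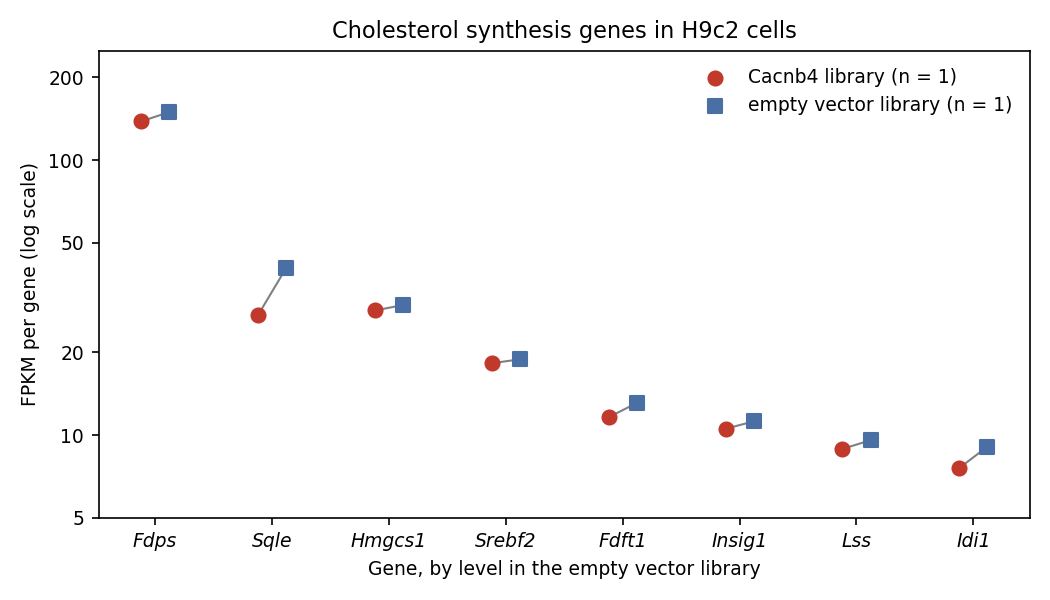
Level of each gene in FPKM on a log axis in the Cacnb4 library (red circles) and the empty vector library (blue squares), 1 library each, ordered by the level in the empty vector library. Each circle lies below its square, and the widest gap is that of Sqle, at 27.3 FPKM in the Cacnb4 library and 40.4 FPKM in the empty vector library.

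The enzymes that lead to squalene all stayed under the smaller size. Hmgcs1, which joins acetyl units into HMG-CoA, the precursor of mevalonate, was at 28.4 FPKM in the Cacnb4 library and 29.7 FPKM in the empty vector library. Its log2 ratio was -0.06, and 43.8% of all measured genes had a ratio as low or lower. The table places Hmgcs1 on chromosome 2 from 51737089 to 51754583 in rn4, with no other transcript on that stretch.

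Idi1, the isomerase that turns one isoprenoid building block into the other, was at 7.59 FPKM in the Cacnb4 library and 9.08 FPKM in the empty vector library. It was the lowest of the 8 genes by level in both libraries. Its log2 ratio of -0.23 was second after Sqle, with 18.03% of measured genes as low or lower. The table gives Idi1 a stretch of 73.3 kb on chromosome 17, from 72555583 to 72628890, shared with Wdr37, which was at 2.23 FPKM in the Cacnb4 library and 2.35 FPKM in the empty vector library. The sources used here do not say whether reads were counted by strand, so reads of neighbours on a shared stretch could be split between them.

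Fdps makes farnesyl diphosphate, the branch point towards sterols, ubiquinone, dolichol and prenylated proteins. It was at 138 FPKM in the Cacnb4 library and 149 FPKM in the empty vector library, with a log2 ratio of -0.11. By level Fdps was number 695 of all symbols in the Cacnb4 library and number 646 in the empty vector library. It held 55.1% of the summed FPKM of the 8 genes in the Cacnb4 library and 53.1% in the empty vector library, and stood at 18.2 times the level of Idi1 in the Cacnb4 library and 16.5 times in the empty vector library. Its locus is on chromosome 2 from 181168901 to 181177903. Processed copies of this gene are known in human, and the sources used here do not say how reads with several matches were counted.

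Fdft1, squalene synthase, commits farnesyl units to sterols. Its level was 11.6 FPKM in the Cacnb4 library and 13.1 FPKM in the empty vector library, a log2 ratio of -0.16 that 27.0% of measured genes matched or undercut. It lies on chromosome 15 from 42425335 to 42453390.

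Sqle, squalene epoxidase, introduces the first oxygen into squalene and is a rate-limiting step of the later pathway. It was at 27.3 FPKM in the Cacnb4 library and 40.4 FPKM in the empty vector library, a ratio of 0.675 and a log2 ratio of -0.55. By that ratio it was number 267 from the lowest of 9539 measured genes, or among the lowest 2.80%. Of 2858 genes with a mean level within 2-fold of its own, 67 were as low or lower, which is 2.34%. Sqle was the second most abundant of the 8 genes in the empty vector library and the third in the Cacnb4 library, where Hmgcs1 stood above it at 28.4 FPKM. The levels of these 2 genes in the Cacnb4 library differ by little, and with 1 library no spread is known for their order.

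**Figure D2:**
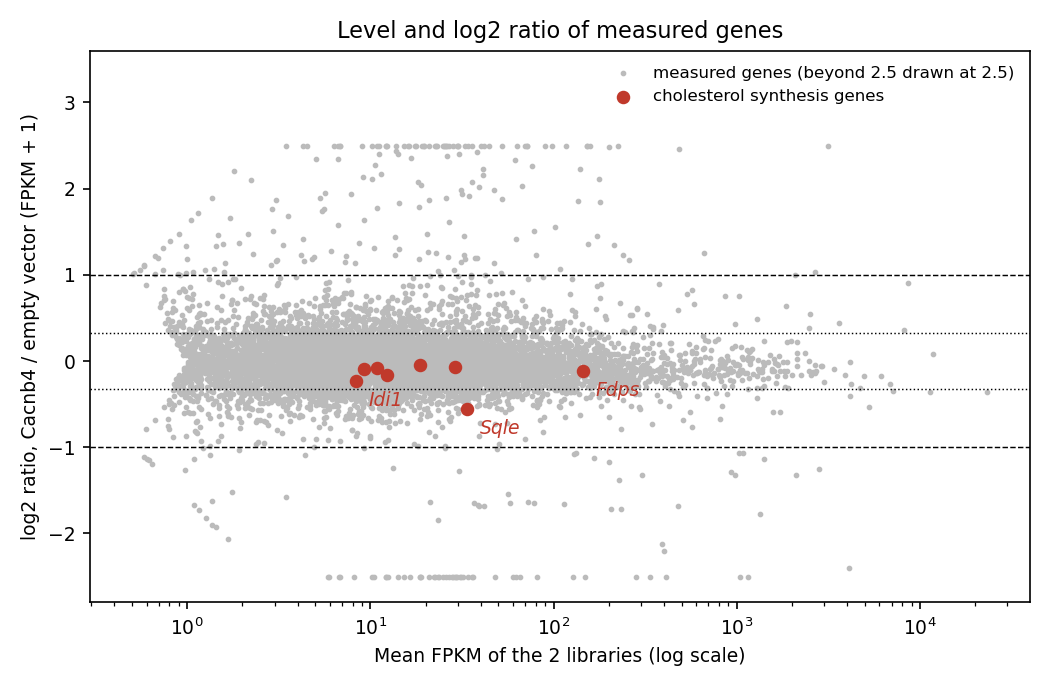
Log2 ratio of Cacnb4 over empty vector on the FPKM + 1 scale against the mean FPKM of both libraries on a log axis, for all 9539 measured genes (grey) and the 8 cholesterol synthesis genes (red), with more extreme ratios drawn at the legend's limit. Dashed lines mark 2-fold and dotted lines a log2 ratio of 0.3219 in either direction, and Sqle at -0.55 is the red point beyond a dotted line while the other 7 lie between -0.23 and -0.04.

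Sqle was listed with 2 transcripts on chromosome 7 from 96096158 to 96111772, and both were lower in the Cacnb4 library. Transcript TCONS_00026548 was at 13.1 FPKM in the Cacnb4 library and 22.5 FPKM in the empty vector library, a ratio of 0.581. Transcript TCONS_00026547 was at 14.2 FPKM in the Cacnb4 library and 17.9 FPKM in the empty vector library, a ratio of 0.793. The first of these held 48.0% of the gene's level in the Cacnb4 library and 55.8% in the empty vector library, so the more abundant transcript differed between libraries. In the authors' deposited table TCONS_00026548 had a log2 fold change of -0.78, a p-value of 0.0920 and a q-value of 0.814, and TCONS_00026547 had -0.33, 0.432 and 0.99993.

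Lss, lanosterol synthase, folds oxidosqualene into the first sterol. Its sum was 8.91 FPKM in the Cacnb4 library and 9.57 FPKM in the empty vector library, with a log2 ratio of -0.09. Its 2 transcripts, on chromosome 20 from 12506057 to 12534612, lay on opposite sides. TCONS_00017838 was at 6.91 FPKM in the Cacnb4 library and 8.20 FPKM in the empty vector library, while TCONS_00017839 was at 1.998 FPKM in the Cacnb4 library and 1.37 FPKM in the empty vector library. The minor transcript held 22.4% of the gene's level in the Cacnb4 library and 14.4% in the empty vector library. With the more abundant transcript in place of the sum, the log2 ratio of Lss was -0.22. In the authors' deposited table the p-values of the 2 transcripts were 0.531 and 1. Levels of transcripts of 1 gene are estimates that share reads.

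**Figure D3:**
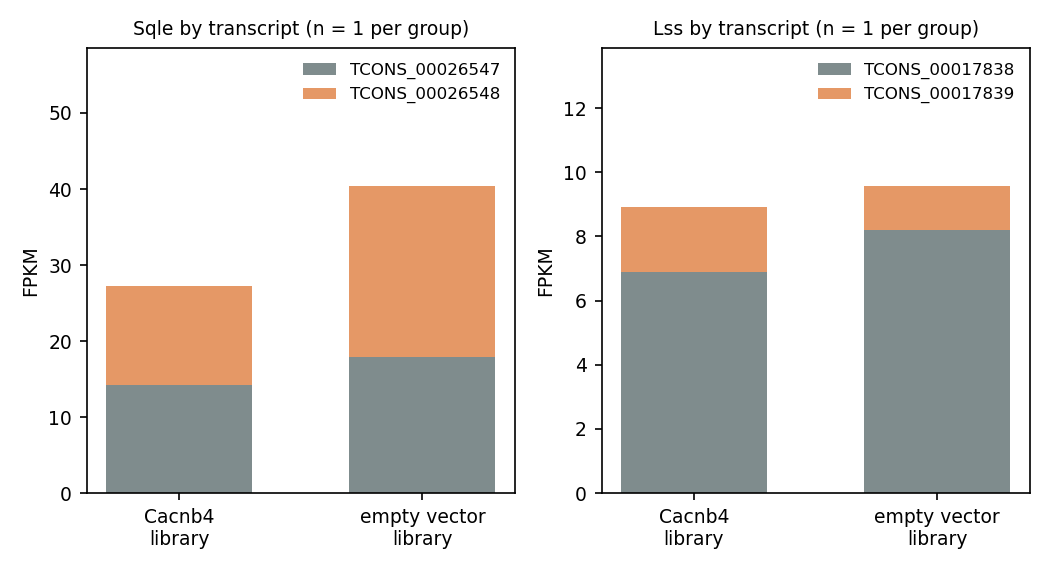
FPKM of Sqle (left) and Lss (right) in the Cacnb4 and empty vector libraries, 1 library each, stacked by the 2 transcripts listed for each gene. Both parts of the Sqle bar are shorter in the Cacnb4 library, while for Lss TCONS_00017839 is taller there, at 1.998 FPKM in the Cacnb4 library and 1.37 FPKM in the empty vector library.

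The regulators were close to equal in the 2 libraries. Insig1 was at 10.5 FPKM in the Cacnb4 library and 11.2 FPKM in the empty vector library, with a log2 ratio of -0.08, on chromosome 4 from 2577467 to 2585682. Srebf2 was at 18.3 FPKM in the Cacnb4 library and 18.9 FPKM in the empty vector library, and its log2 ratio of -0.04 was the nearest to 0 of the 8 genes. For both, a large share of the measured genes had a ratio as low or lower, 40.7% for Insig1 and 47.1% for Srebf2. The table gives Srebf2 a stretch of 691 kb on chromosome 7, from 119927856 to 120619299, that it shares with 19 other symbols, so the stretch is not the gene's own extent. One of those symbols is Mir33, the microRNA precursor within Srebf2 that in mouse and human acts on sterol efflux genes, and it was listed at 0 in both libraries.

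By level, the 8 genes ran in the Cacnb4 library from Fdps through Hmgcs1, Sqle, Srebf2, Fdft1, Insig1 and Lss to Idi1. In the empty vector library the order was the same except that Sqle stood above Hmgcs1. Without Fdps the sum of the other 7 was 113 FPKM in the Cacnb4 library and 132 FPKM in the empty vector library, a ratio of 0.853.

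The authors' deposited table marked 0 of the 10 transcripts of these genes at a q-value below 0.05, beside 0.696% of all 32767 transcripts. At an unadjusted p-value below 0.05 the authors' deposited table had 0 of the 10 transcripts, beside 1803 of all 32767. A set of 10 transcripts is too small to set these shares apart. The 32767 also include 13533 unnamed transcripts and those of genes that were not measured. Shares of all transcripts, here and below, are therefore not shares among transcripts of measured genes. The lowest p-value among the 10 in the authors' deposited table was 0.0920, for the Sqle transcript named above. That test sets the reads of 1 library against those of another and does not compare conditions.

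The other enzymes of sterol synthesis were also mostly lower in the Cacnb4 library. Of 15 listed, 13 were in the table and measured, of which 12 had a log2 ratio below 0, beside 55.4% of measured genes. Those 12 include Ggps1, at -0.07, an enzyme of the isoprenoid branch towards protein prenylation rather than of sterol synthesis. By the smaller size or more 3 of the 13 were lower, beside 10.1%, and 0 were higher, beside 9.78%. At 2-fold 0 were lower and 0 higher, beside 1.08% and 1.94%. Their median log2 ratio was -0.16, and -0.29 with a minimum of 5 FPKM. Nsdhl, a sterol dehydrogenase, was at 9.98 FPKM in the Cacnb4 library and 14.4 FPKM in the empty vector library. Msmo1, the methylsterol oxidase, was at 34.4 FPKM in the Cacnb4 library and 44.3 FPKM in the empty vector library. Both are among the 3 past the smaller size.

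Ebp, the sterol isomerase, and Mvd, which makes the first isoprenoid unit, came next. Ebp was at 10.05 FPKM in the Cacnb4 library and 12.7 FPKM in the empty vector library, and Mvd at 13.1 FPKM in the Cacnb4 library and 16.4 FPKM in the empty vector library. Dhcr7, the reductase of a late ring double bond, was the 1 enzyme above 0, at 6.96 FPKM in the Cacnb4 library and 6.75 FPKM in the empty vector library. Dhcr7 is named after its value was seen. The authors' deposited table marked none of these enzymes' transcripts at a q-value below 0.05, beside 0.696% of all transcripts.

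**Figure D4:**
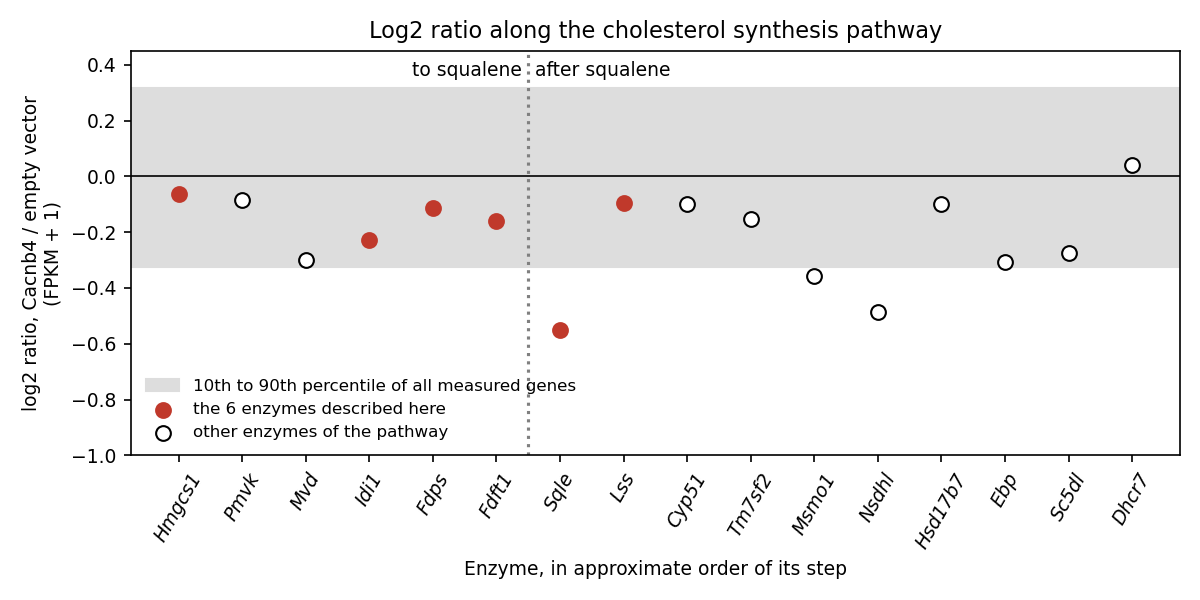
Log2 ratio of Cacnb4 over empty vector on the FPKM + 1 scale for measured enzymes in approximate order of their steps, with the 6 enzymes described here in red, other enzymes as open circles, not all enzymes of the list being drawn, and the 10th to 90th percentile of all measured genes (-0.33 to 0.32) shaded. Sqle at -0.55, Nsdhl at -0.49 and Msmo1 at -0.36 lie below the shaded band.

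Genes of sterol uptake and of SREBP handling showed no such common direction. Of 16 listed, 15 were in the table and 13 measured, of which 5 lay below 0, beside 55.4% of measured genes, and 8 above. By the smaller size or more 0 were lower, beside 10.1%, and 5 were higher, beside 9.78%. Their median log2 ratio was 0.25, and 0.10 with no minimum level. Insig2, the homologue of Insig1, was at 8.42 FPKM in the Cacnb4 library and 4.92 FPKM in the empty vector library, a log2 ratio of 0.67 beside -0.08 for Insig1. Mbtps2, the protease that makes the second cut of SREBP, was at 3.69 FPKM in the Cacnb4 library and 2.22 FPKM in the empty vector library. The lipoprotein receptor genes Vldlr and Lrp1 were the other large ones of the list. Vldlr was at 205 FPKM in the Cacnb4 library and 135 FPKM in the empty vector library, and Lrp1 at 57.3 FPKM in the Cacnb4 library and 40.9 FPKM in the empty vector library. Lipa, the lysosomal lipase that frees cholesterol from esters, was at 28.7 FPKM in the Cacnb4 library and 22.7 FPKM in the empty vector library. The authors' deposited table marked 0 transcripts of this list at a q-value below 0.05, beside 0.696% of all transcripts.

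Of 10 efflux and oxysterol genes, 5 were measured, with 1 below 0, beside 55.4% of measured genes. By 2-fold or more 1 was higher, beside 1.94%. That was Cyp27a1, the mitochondrial sterol 27-hydroxylase, at 6.36 FPKM in the Cacnb4 library and 2.29 FPKM in the empty vector library, with a q-value of 0.0578 in the authors' deposited table. The other 4 were under the smaller size. Apoe, a carrier of cholesterol, was at 2.59 FPKM in the Cacnb4 library and 2.26 FPKM in the empty vector library. That level sums 5 transcripts that lay on both sides in the authors' deposited table. Transcript TCONS_00001572 of Apoe had a log2 fold change of -1.90 there. Osbp, an oxysterol-binding protein, was at 28.5 FPKM in the Cacnb4 library and 25.8 FPKM in the empty vector library. Nr1h2, a nuclear receptor for oxysterols, was at 24.6 FPKM in the Cacnb4 library and 22.5 FPKM in the empty vector library, and Soat1, which esterifies cholesterol, at 52.4 FPKM in the Cacnb4 library and 55.2 FPKM in the empty vector library. Ch25h was under 1 FPKM in both, at 0.0662 FPKM in the Cacnb4 library and 0.294 FPKM in the empty vector library.

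Fatty acid synthesis genes, many of them targets of the related factor SREBP-1, split evenly. All 8 genes in the table were measured, 4 of them below 0, beside 55.4% of measured genes, and 4 above. Their median log2 ratio was -0.01, and 0.13 with the highest transcript in place of the sum. Fads1, a desaturase, was at 27.6 FPKM in the Cacnb4 library and 36.4 FPKM in the empty vector library. It was the 1 gene lower by the smaller size or more, beside 10.1% of measured genes. Scd, the stearoyl desaturase, was at 13.9 FPKM in the Cacnb4 library and 10.9 FPKM in the empty vector library, a log2 ratio of 0.3218 that is just under the smaller size. Acss2, which makes acetyl-CoA from acetate, was at 5.14 FPKM in the Cacnb4 library and 4.23 FPKM in the empty vector library. Acaca, acetyl-CoA carboxylase, was at 4.01 FPKM in the Cacnb4 library and 3.36 FPKM in the empty vector library, and Fads2, another desaturase, at 14.6 FPKM in the Cacnb4 library and 16.5 FPKM in the empty vector library. Srebf1 was not analysed here. Counts over these lists describe them and were not tested, and with 2 libraries no measure of likeness between genes was taken.

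**Figure D5:**
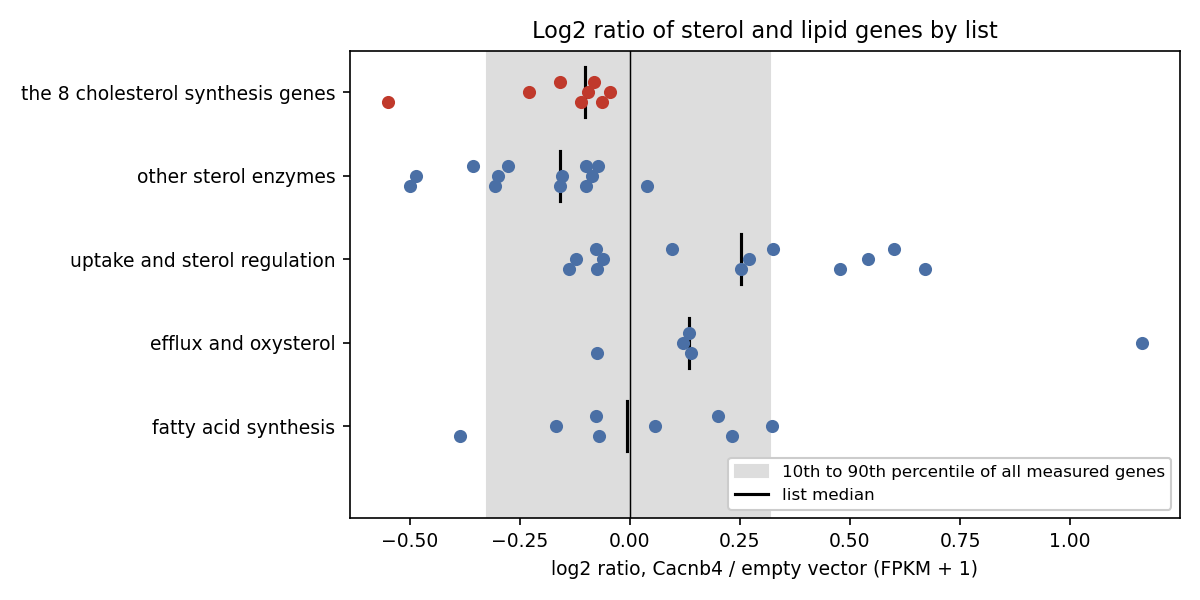
Log2 ratio of Cacnb4 over empty vector on the FPKM + 1 scale for measured genes of each list, with the list median as a black bar and the 10th to 90th percentile of all measured genes shaded. The 8 cholesterol synthesis genes (red) lie between -0.55 and -0.04, and the uptake and sterol regulation list reaches 0.67.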

How the data were processed

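RNA of 2 libraries was sequenced, and samples were grouped by their titles. Per the file headers, the deposited read counts are raw, mappable and unmapped reads, with the 3' adaptor removed and reads under 10 bases left out. The submitters' processing notes list TopHat 1.4.1 and build rn4, and the sources used here name no program for the estimates of level. The deposited values per transcript were read as FPKM, since they are not whole and sum to 10220201 in the Cacnb4 library and 9226668 in the empty vector library. The deposited log2 fold changes, p-values and q-values are the authors'.

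FPKM was summed per symbol, leaving out 13533 unnamed transcripts and 17 with date-like names. Ratios used a pseudocount of 1 FPKM. Depth per gene is unknown, so no counting interval is given. The 8 genes, the lists, the log2 size of 0.3219 and the naming rule (up to 5 measured genes per list with the largest absolute log2 ratio, plus Ch25h and Srebf1) were chosen with earlier results of these data known. The code was checked on simulated levels without noise, in which 200 genes were given set folds. That check covers the arithmetic and not the spread between libraries. Alternatives were other pseudocounts and minimums, the highest transcript, a rescaling, leaving out microRNA precursors, a q-value below 0.01 and 1 strand for motifs. The highest transcript of a gene was the one with the highest FPKM summed over both libraries. Python 3.11.15, numpy 2.4.6, pandas 2.3.3 and matplotlib 3.10.9 were used. Start coordinates of the table may count from 0 or 1. Some genes that the naming rule picks are counted in their lists but not reported by name.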

Additional observations from a re-analysis of the deposited data

How the results depend on the processing

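No paired analysis was possible because each group held 1 library, and for the same reason no replicate could be left out. A log2 value was counted as moved at a shift of 0.1 or more. Of 56 log2 ratios of the 8 genes under alternatives, 54 moved by less, and the exceptions were Sqle at -0.74 and Lss at -0.22 with the highest transcript. For Sqle that transcript was TCONS_00026548, which in the Cacnb4 library alone was the lower of the 2, at 13.1 FPKM against 14.2 FPKM. All 8 stayed below 0 under every alternative run. Without Sqle, an alternative added after its value was seen, the count of these genes lower by a log2 ratio of 0.3219 or more was 0. The median of the other sterol enzymes was -0.29 with a minimum of 5 FPKM. The uptake and regulation median was 0.14 with a pseudocount of 5 FPKM, where 3 genes were higher by that size, and 0.10 with no minimum. In the efflux list, 3 genes lay below 0 with no minimum and 2 with the highest transcript, where 1 was lower by that size. The fatty acid median was 0.13 with the highest transcript, and 1 gene was higher by that size there, with a pseudocount of 0.1 FPKM and after rescaling. Over all measured genes, 26 were 2-fold lower without microRNA precursors, against 103, and 464 were lower and 556 higher by a log2 ratio of 0.3219 or more with a pseudocount of 5 FPKM, against 966 and 933. On the gene's strand alone, CCAAT stood in 1 of the 6 promoter windows and the GC box in 3, against 20.9% and 21.9% of all windows. The shortened sterol element stood in 1 of the 6. The causes of these shifts were not tested.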

Other observations

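Isoprenoids made by Fdps also feed ubiquinone, dolichol and protein prenylation, and a list of 12 such genes was chosen after the data were opened. The 11 in the table were all measured, with 8 below 0, beside 55.4% of measured genes. By a log2 ratio of 0.3219 or more 0 were lower and 0 higher, beside 10.1% and 9.78%. Their median log2 ratio was -0.09, beside -0.03 over all measured genes. Dolk, the dolichol kinase, was at 9.31 FPKM in the Cacnb4 library and 10.9 FPKM in the empty vector library. Rabggta, a subunit of the enzyme that prenylates Rab proteins, was at 7.97 FPKM in the Cacnb4 library and 9.29 FPKM in the empty vector library. Coq2, of ubiquinone synthesis, was at 12.4 FPKM in the Cacnb4 library and 11.3 FPKM in the empty vector library.

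Split after the values were seen, 6 measured enzymes up to squalene had a median log2 ratio of -0.14 and ran from -0.30 to -0.06, with 0 lower by a log2 ratio of 0.3219 or more. The 10 enzymes after squalene that are drawn in the plot by pathway step had a median of -0.21 and ran from -0.55 to 0.04. By that size 3 of these 10 were lower, beside 10.1% of measured genes. This difference between stages was not tested.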
